A study of Mus musculus with 4 samples.

Results

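The 37 genes of the mouse mitochondrial genome were examined in single-cell RNA-seq (scRNA-seq) of vascular smooth muscle cells (VSMCs). They were taken as every gene whose symbol starts with mt- and made up 37 of the 34469 genes listed in any library. They comprise 13 protein-coding genes, 2 ribosomal RNA (rRNA) genes and 22 transfer RNA (tRNA) genes, and all 37 were listed in all 4 libraries. Cells came from 2 experiments with 1 library per genotype in each. In the first, plaques were dissected from the aorta and carotid arteries of male ApoE-/- and Trf2T188A/ApoE-/- mice after 14 weeks of high fat diet. Both plaque groups lacked ApoE and carried Myh11-CreERt2 and the Confetti reporter, induced by 10 tamoxifen injections from 6 weeks of age, so that mature VSMCs and their progeny were labelled, and clusters without the reporter had been removed. In the second, left common carotid arteries were taken 28 days after ligation from male Trf2T188A mice aged 4 to 5 months and from their wild-type littermates (control), with the adventitia removed and without selection for a reporter. TRF2 is a protein of the telomere cap, and in both experiments a minimal Sm22a promoter drove the mutant TRF2T188A in smooth muscle cells. How many mice were pooled into a library is not given in the sources used here.

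The mitochondrial genome is a small circle that encodes core subunits of the respiratory chain, while all other mitochondrial proteins are made from nuclear genes. The rRNAs and tRNAs serve the ribosomes that translate these subunits inside the organelle. Both strands are transcribed into long precursors, and tRNAs that lie between the mRNAs and rRNAs are cut out to release them. Most mitochondrial mRNAs and both rRNAs carry short tails of A, which is how methods that prime on poly(A) capture them. In scRNA-seq the share of a cell's molecules that is mitochondrial is used to discard damaged cells, and here cells over 8% (plaque) or 6% (ligation) had been removed before the data were deposited. All shares below are therefore cut off at these limits.

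The plaque libraries held 1502 ApoE-/- and 929 Trf2T188A/ApoE-/- cells, with a median of 22765.5 and 24377 unique molecular identifiers (UMIs, which count captured molecules) per cell. The ligation libraries held 4967 control and 5392 Trf2T188A cells, with medians of 8631 and 11153 UMIs. The 2 plaque libraries shared 0 cell barcodes and the 2 ligation libraries shared 10. Terf2, the gene of TRF2, was measured at 0.183 UMIs per 10000 in both plaque libraries, and at 0.179 and 0.168 in control and Trf2T188A ligated arteries. It was thus not higher in the libraries labelled Trf2T188A. Whether transcripts of the transgene are counted under Terf2 is not known from the sources used here, so the genotype labels could not be checked by it. Because each genotype had a single library per experiment, no p-value is given, and values carry 95% intervals that cover counting error only. Differences between mice cannot be told apart from differences between genotypes.

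Part of the mitochondrial genome has a nearly identical copy in the nucleus, which bears on how these genes can be counted. In the annotated mouse transcripts (GENCODE M21, GRCm38), 7 pseudogenes on the minus strand at chr1:24611535-24616197 matched chrM:6390-11042 in the same order, a stretch of 4653 bases. It holds 6 protein-coding genes and 5 tRNA genes in full (mt-Co2, mt-Atp8, mt-Atp6, mt-Co3, mt-Nd3, mt-Nd4l, mt-Ts1, mt-Td, mt-Tk, mt-Tg and mt-Tr) and part of mt-Co1 and mt-Nd4. No annotated copy of mt-Atp8 or of the tRNA genes was used, and these genes were placed inside the stretch by position, since the copies of mt-Co2 and mt-Atp6 are 233 bases apart on both chromosomes. The other 5 mRNAs (mt-Nd1, mt-Nd2, mt-Nd5, mt-Nd6 and mt-Cytb) and both rRNAs lie outside it. The copies of mt-Co2, mt-Atp6, mt-Co3, mt-Nd4l and the first part of mt-Nd4 were identical over 681, 678, 783, 294 and 876 aligned bases. The copy of mt-Nd3 differed at 1 of 345 bases and that of mt-Co1 at 1 of 483. A read from such a stretch fits both places equally well, so RNA of the mitochondrial gene and of the copy cannot be told apart there.

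The 5′ ends of mt-Nd3 (chrM:9459-9521, plus strand) and of its copy Gm28438 (chr1:24613057-24613119, minus strand) are shown because they hold the only base that differs, T3C, counted from 1 at the 5′ end and set in capitals.
mt-Nd3: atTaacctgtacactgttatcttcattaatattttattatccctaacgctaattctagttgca
Gm28438: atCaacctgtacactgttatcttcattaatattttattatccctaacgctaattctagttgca
The 3′ end of mt-Co3 (chrM:9310-9390, plus strand) is shown beside that of Gm28437 (chr1:24613189-24613268, minus strand), since mt-Co3 was among the mRNAs with the highest ratios in ligated arteries. The capital marks the base after the aligned stretch.
mt-Co3: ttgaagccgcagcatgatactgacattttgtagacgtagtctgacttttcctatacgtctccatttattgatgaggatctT
Gm28437: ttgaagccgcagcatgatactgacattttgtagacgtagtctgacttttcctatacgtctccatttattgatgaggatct
In mt-Nd4 the copy ends at base 876, and in the stretch from base 817 to 936 (chrM:10983-11102, plus strand) the capitals mark the bases past that end, where reads are no longer shared with Gm28439.
mt-Nd4: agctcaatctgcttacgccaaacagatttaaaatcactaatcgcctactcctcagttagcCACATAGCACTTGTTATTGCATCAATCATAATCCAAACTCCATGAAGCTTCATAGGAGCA

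Some members also overlap each other. The gene mt-Atp8 encodes a subunit of ATP synthase and spans only 204 bases (chrM:7766-7969, plus strand). It ends inside the gene mt-Atp6, and the 43 bases that both share are in capitals. Levels below are counts per annotated gene, and whether overlapping genes lie on the same RNA molecule was not tested.
mt-Atp8: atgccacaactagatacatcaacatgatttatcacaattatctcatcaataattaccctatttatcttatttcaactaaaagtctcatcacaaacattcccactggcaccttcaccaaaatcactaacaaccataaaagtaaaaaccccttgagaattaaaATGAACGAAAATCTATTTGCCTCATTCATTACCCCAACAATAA
The tRNA genes are shorter still. Shown are mt-Tc (chrM:5192-5257, minus strand), which had the most UMIs of the 22 in the ligation libraries, mt-Ta (chrM:5018-5086, minus strand), which came next in Trf2T188A ligated arteries, and mt-Ts2 (chrM:11613-11671, plus strand), which had the most UMIs in plaques.
mt-Tc: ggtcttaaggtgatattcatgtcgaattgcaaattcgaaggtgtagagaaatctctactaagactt
mt-Ta: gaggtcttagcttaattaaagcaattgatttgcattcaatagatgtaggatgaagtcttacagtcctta
mt-Ts2: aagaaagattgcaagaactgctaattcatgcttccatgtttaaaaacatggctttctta

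First, the level of each gene was compared with that of the others. A level is the mean over cells of the UMIs of a gene per 10000 UMIs of the cell. The 37 genes together stood at 272 per 10000 in ApoE-/- plaques, 209 in Trf2T188A/ApoE-/- plaques, 205 in control and 216 in Trf2T188A ligated arteries. The rRNAs supplied 53.4%, 54.2%, 51.9% and 47.4% of these UMIs in the same order and the 13 mRNAs 46.4%, 45.7%, 47.9% and 52.3%. The 22 tRNAs together supplied between 0.139% and 0.304%. Almost all mitochondrial UMIs thus came from 15 genes, with the rRNAs above the mRNAs in 3 of 4 libraries.

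Levels differed widely between genes when expressed per kilobase of gene. For these values, unlike the mean over cells above, UMIs were summed over all cells of a library and divided by the total of the library and the length of the gene. mt-Rnr2, the large rRNA, led in all 4 libraries, with 57.0 and 43.4 UMIs per 10000 per kilobase in ApoE-/- and Trf2T188A/ApoE-/- plaques and 55.7 and 53.5 in control and Trf2T188A ligated arteries. mt-Rnr1, the small rRNA, stood at 40.5 and 30.3 in plaques but 13.2 and 12.1 in ligated arteries. Its summed UMIs were 0.429 and 0.422 times those of mt-Rnr2 in the plaque libraries and 0.144 and 0.137 times in the ligation libraries. The 2 experiments differed in disease, dissection, depth and Cell Ranger version (7.0.0 for plaques and 6.1.2 for ligation). The part of these in the mt-Rnr1 values was not tested.

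Among mRNAs, mt-Cytb, the subunit of complex III, was highest per kilobase in every library, with 34.8, 26.2, 27.4 and 32.5 UMIs per 10000. The complex I subunits spanned a wide range: mt-Nd1 stood at 18.2, 13.2, 16.1 and 17.99, and mt-Nd2 at 18.3, 12.7, 15.7 and 18.7. mt-Nd4 followed with 9.20 to 12.5, and mt-Nd5 with 2.26 to 3.02. By contrast, mt-Nd3 stood at 1.30 to 4.05 and mt-Nd4l at 0.332 to 0.431. mt-Nd6, the only mRNA on the light strand, stood at 0.396 to 0.727.

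The complex IV subunits were also uneven. mt-Co1 ranged from 3.98 to 5.21 UMIs per 10000 per kilobase over the 4 libraries, whereas mt-Co3 ranged from 0.160 to 0.411 and mt-Co2 from 0.0913 to 0.146. Of the ATP synthase subunits, mt-Atp8 ranged from 5.71 to 9.95 and mt-Atp6 from 0.426 to 1.196. All 6 mRNAs that lie fully inside the stretch with a nuclear copy stood at 0.0935 to 2.29 UMIs per 10000 in plaques and 0.0648 to 1.88 in ligated arteries as means over cells, not scaled to length. The 7 pseudogenes themselves held 170 and 91 UMIs in ApoE-/- and Trf2T188A/ApoE-/- plaques and 364 and 748 in control and Trf2T188A ligated arteries. The part of the copies in the low levels of these mRNAs was not tested.

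**Figure D1:**
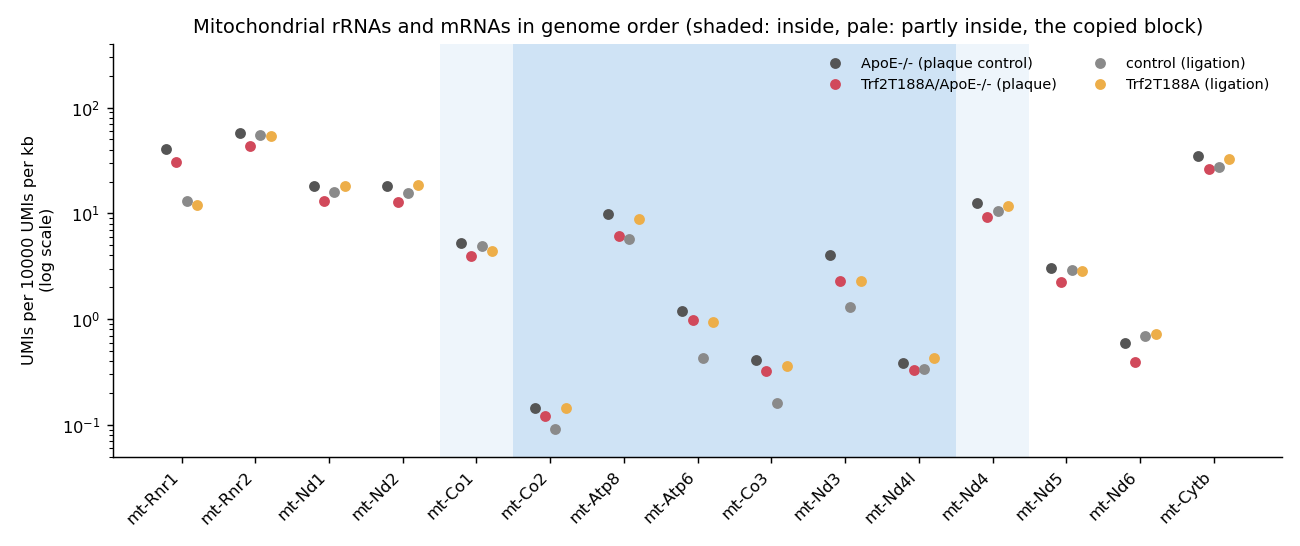
UMIs summed over all cells of a library, per 10000 UMIs of the library and per kilobase (log scale, vertical axis), of the 2 rRNAs and 13 mRNAs, which run along the horizontal axis in genome order, with 1 point per library. The shaded genes inside the stretch with a nuclear copy sit low, except mt-Atp8 at 5.71 to 9.95 and mt-Nd3 at 1.30 to 4.05, while mt-Rnr2 at 43.4 to 57.0 is highest in all 4 libraries.

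Next, the mitochondrial share of each cell was examined, that is, the percentage of its UMIs that came from the 37 genes. Plaque cells of Trf2T188A/ApoE-/- mice had a lower share than those of ApoE-/- mice, with a mean of 2.09% ± 1.76 (SD over 929 cells) vs. 2.72% ± 1.58 (SD over 1502 cells) and medians of 1.78% vs. 2.43%. The difference in means was -0.63 percentage points. In ligated arteries the difference was small and in the other direction, 2.16% ± 0.968 (SD over 5392 cells) in Trf2T188A vs. 2.05% ± 0.970 (SD over 4967 cells) in control. Few cells lay within 1 percentage point of the limit, 46 ApoE-/- cells (3.06%), 17 Trf2T188A/ApoE-/- cells (1.83%), 76 control cells (1.53%) and 102 Trf2T188A cells (1.89%). When each class of cells was given the same weight in both genotypes, the plaque means were 2.02% vs. 2.75% and the ligation means 2.15% vs. 2.06%.

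Trf2T188A/ApoE-/- plaques also held many cells with almost no mitochondrial RNA. A share under 0.5% was found in 199 of 929 Trf2T188A/ApoE-/- cells (21.4%, 95% Clopper-Pearson interval 18.8 to 24.2), compared with 49 of 1502 ApoE-/- cells (3.26%, 2.42 to 4.29). In ligated arteries it was found in 67 of 4967 control (1.35%) and 69 of 5392 Trf2T188A cells (1.28%), which lie within each other's intervals. A share under 0.25% was found in 140 Trf2T188A/ApoE-/-, 18 ApoE-/-, 20 control and 29 Trf2T188A cells. The lowest 5% of cells lay at or under 0.0467% in Trf2T188A/ApoE-/- and at or under 0.668% in ApoE-/- plaques. At 8000 UMIs drawn from each cell (with 92 ApoE-/- and 122 Trf2T188A/ApoE-/- cells too shallow for this), cells under 0.5% were 20.0% of Trf2T188A/ApoE-/- and 3.05% of ApoE-/- cells.

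**Figure D2:**
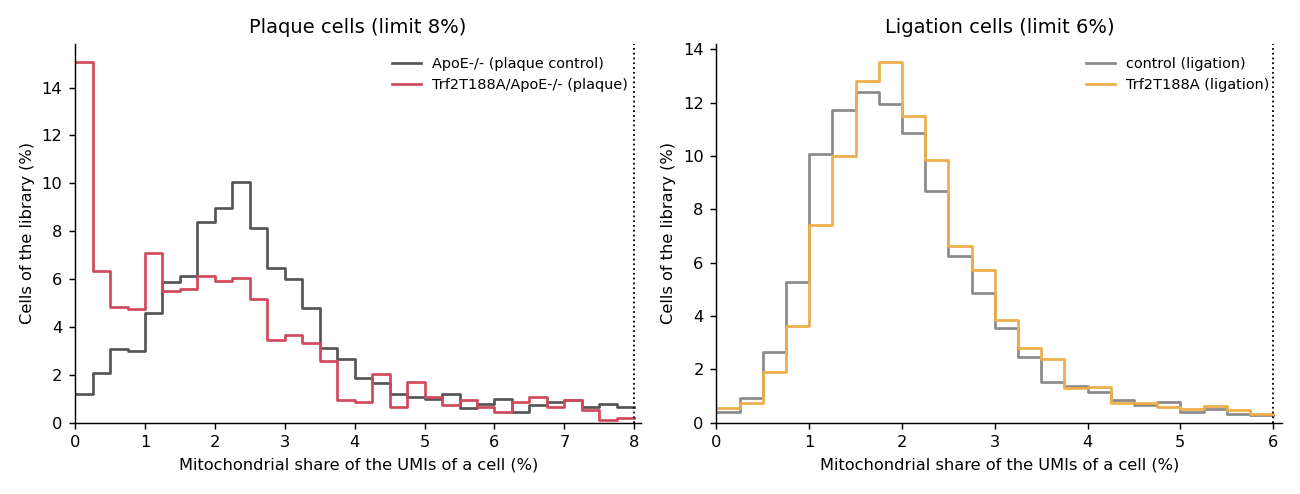
Distribution of the mitochondrial share (percentage of the UMIs of a cell, horizontal axis) as the percentage of cells of each library (vertical axis), for plaque cells on the left and ligation cells on the right, with the limit applied by the authors as a dotted line. The Trf2T188A/ApoE-/- library has a second peak near 0, which holds its 21.4% of cells under 0.5%, whereas ApoE-/- has 3.26% there and the ligation libraries 1.35% and 1.28%.

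Classes of cells were formed by clustering and named from marker lists, and mitochondrial genes took no part in the clustering. In plaques, they were contractile cells (Acta2, Tagln, Myh11) and classes named Cluster 2-like (Timp1, Spp1, Lum, Dcn), Cluster 3-like (Itih4, Ifi27l2a), Cluster 4-like (C3, Lcn2, Cxcl1), Cluster 5-like (Dmd, Nav2, Slit3), Cluster 7-like (Gadd45b, Atf3, Egr1), Cluster 8-like (Col2a1, Acan, Comp), Cluster 10-like (Adamtsl1, Sfrp2) and Cluster 11-like (Pln, Notch3). The numbers in these names are those of the study, but the classes were rebuilt here and may differ from its clusters in their cells. In ligated arteries other marker lists were used, among them those of contractile cells (Sparcl1, Tcap, Rbp4) and Cluster 2-like cells (Lum, Gdf10, Dcn). Classes of the same name in plaques and ligated arteries were thus named separately and need not be the same kind of cell. A total of 35 ApoE-/- and 1 Trf2T188A/ApoE-/- cells stayed unnamed.

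Cells under 0.5% were more frequent in Trf2T188A/ApoE-/- plaques in 9 of 9 named classes. Among contractile cells they were 72 of 316 (22.8%, 18.3 to 27.8) vs. 16 of 690 in ApoE-/- (2.32%, 1.33 to 3.74). Among Cluster 8-like cells, which express cartilage genes, they were 28 of 64 (43.8%, 31.4 to 56.7) vs. 6 of 81 (7.41%, 2.77 to 15.4). The lowest percentage in Trf2T188A/ApoE-/- was 16.7% in Cluster 4-like cells and the highest in ApoE-/- was 7.50% in Cluster 2-like cells, so the percentages of the classes did not overlap between the genotypes. The counting intervals of the genotypes overlapped in 4 of the 9 classes, and the classes of 1 library are not replicates. For instance, 0 of 43 Cluster 11-like cells of ApoE-/- plaques were under 0.5%, which allows a share of up to 6.98% (3 counts of the total), compared with 4 of 23 (17.4%, 4.95 to 38.8) in Trf2T188A/ApoE-/- plaques.

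**Figure D3:**
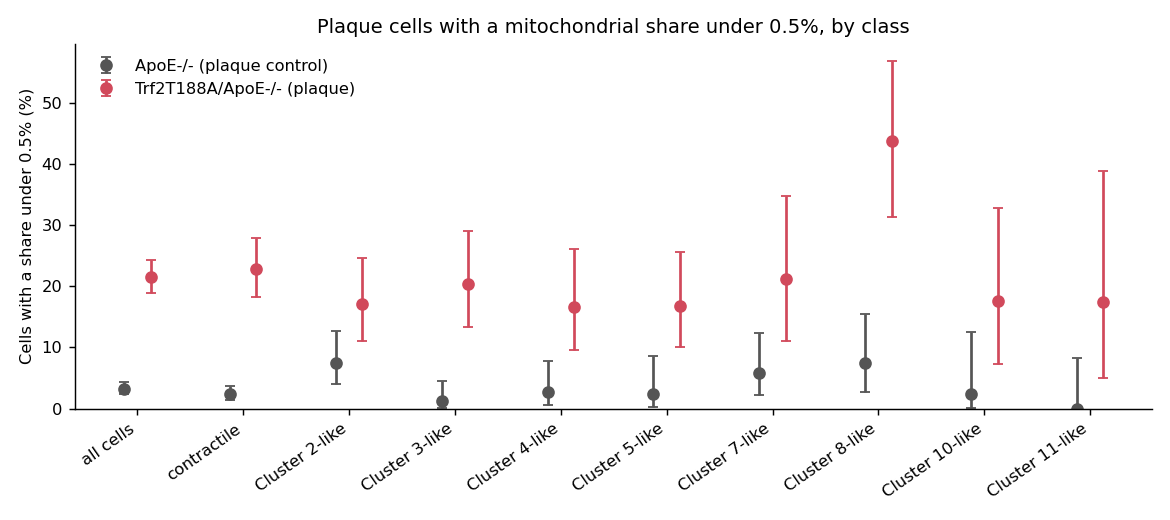
Percentage of plaque cells with a mitochondrial share under 0.5% (vertical axis) in all cells and in each class (horizontal axis), with 1 point per genotype and bars for 95% Clopper-Pearson intervals, which cover counting error only. Trf2T188A/ApoE-/- classes range from 16.7% to 43.8% and ApoE-/- classes from 0% to 7.50%.

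The mean share was lower in Trf2T188A/ApoE-/- than in ApoE-/- plaques in 8 of 9 classes. It was 1.88% vs. 2.74% in contractile, 3.26% vs. 4.66% in Cluster 5-like and 1.36% vs. 2.01% in Cluster 8-like cells. The exception was Cluster 2-like cells with 2.40% vs. 2.29%. Cluster 5-like cells had the highest share and the lowest depth in both genotypes, with medians of 7627 and 9881.5 UMIs in Trf2T188A/ApoE-/- and ApoE-/- plaques, and 23.2% of those of ApoE-/- lay within 1 point of the limit.

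Depth, number of genes and Malat1 were then compared between cells with little and with more mitochondrial RNA. In the contractile class of Trf2T188A/ApoE-/- plaques, the 72 cells under 0.5% had a median of 24358 UMIs and 5259.5 genes, compared with 25342 UMIs and 5309 genes in the 147 cells with a share of 1 to 3%. Malat1, a nuclear long non-coding RNA used as a sign of RNA left in nuclei, stood at 199 vs. 256 UMIs per 10000. The 88 genes of cytosolic ribosomal proteins together stood at 1015 vs. 907. In contractile ApoE-/- cells, Malat1 stood at 203 UMIs per 10000 in the 16 cells under 0.5% vs. 239 in the 405 cells of 1 to 3%. Over the cells of all classes, it stood at 291 in the 49 cells under 0.5% vs. 264 in those of 1 to 3% in ApoE-/- plaques. In Trf2T188A/ApoE-/- plaques the values over all classes were 313 vs. 317. At the other end, the 46 ApoE-/- cells within 1 point of the limit had a median of 8334 UMIs and 2799 genes, with 587 UMIs of Malat1 and 277 of ribosomal protein genes per 10000, whereas the 880 ApoE-/- cells with a share of 1 to 3% had 24658 UMIs, 5229 genes, 264 and 915.

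All mitochondrial genes were low together in these cells. Since the cells were split by the sum of the 37 genes, the direction was fixed by the choice, and only the size for each gene is described. In the same contractile cells, mt-Rnr2 stood at 4.69 vs. 70.3 UMIs per 10000 in cells under 0.5% vs. cells of 1 to 3%, mt-Cytb at 3.47 vs. 39.3 and mt-Nd1 at 1.11 vs. 17.5. The log2 ratio was -3.65 for mt-Rnr2, -3.18 for mt-Nd2, -3.17 for mt-Cytb, -3.14 for mt-Rnr1, -3.13 for mt-Nd1 and -2.94 for mt-Nd4. mt-Rnr2 gave 32.9% of the mitochondrial UMIs in cells under 0.5% and 33.8% in cells of 1 to 3%, and mt-Cytb gave 23.7% and 19.6%. Over 10336 detected nuclear genes the median log2 ratio was -0.01.

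Some nuclear genes differed between the same cells. The highest were Ecrg4 (log2 ratio 1.68), Dcn (1.34), Des (1.05), Cst3 (0.95) and Isg15 (0.94), of which Dcn encodes decorin, a matrix proteoglycan, and Isg15 an interferon-induced protein. The lowest were hrGFP-cDNA (-0.95), which is among the 4 reporter genes, Pcdh7 (-0.65) and Dmd (-0.59). Contractile ApoE-/- cells did not show the higher levels. There Dcn stood at 0.51 in the 16 cells under 0.5% vs. 0.81 in the 405 cells of 1 to 3%. Lum stood at 0.15 vs. 0.40, Ecrg4 at 0.097 vs. 0.17 and Cst3 at 26.5 vs. 27.3. In contractile cells of both ligation libraries, the directions of Dcn, Lum, Ecrg4 and Cst3 were mixed. Of the contractile Trf2T188A/ApoE-/- cells, hrGFP-cDNA was detected in 8.33% under 0.5% vs. 21.8% of those of 1 to 3%. For mCereulean-cDNA this was 47.2% vs. 39.5%, for EYFP-cDNA 63.9% vs. 53.7% and for tdimer2 18.1% vs. 18.4%. Any reporter gene was detected in 90.3% vs. 95.2%. In contractile ApoE-/- cells, hrGFP-cDNA had the opposite direction, at 25% of the 16 cells under 0.5% vs. 10.9% of the 405 cells of 1 to 3%. Over the cells of all classes, it was detected in 12.06% vs. 11.99% in Trf2T188A/ApoE-/- and in 8.16% vs. 9.09% in ApoE-/- plaques. Genotype ratios of Dcn, Lum and Ecrg4 are given with and without the cells under 0.5%. In all contractile cells, the log2 ratio of Trf2T188A/ApoE-/- over ApoE-/- was 0.94 for Dcn, 0.69 for Lum and 0.72 for Ecrg4, whereas without cells under 0.5% it was 0.48, 0.46 and 0.17. These genes were picked after their values were seen. All of them were higher in the contractile Trf2T188A/ApoE-/- cells under 0.5% (Lum at 0.82). Such cells were left out more often in Trf2T188A/ApoE-/-, so smaller ratios followed from the choice. The relation of these genes to the mitochondrial share was not tested.

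The genotypes were then compared gene by gene. A log2 ratio is that of mean UMIs per 10000 plus a pseudocount of 1, and a gene was called where it was at least 0.25 in size and the gene was detected in 10% of the cells of either library. In plaques, both rRNAs and 8 of 13 mRNAs were called lower in Trf2T188A/ApoE-/-, and none was called higher. Of all 10526 genes tested, 0.247% were called lower and 0.57% higher. Since low genes can hardly pass with this pseudocount, genes with a mean of at least 1 per 10000 were also compared, of which 1.34% of 1790 were called lower, including 8 of 8 mRNAs and 2 of 2 rRNAs. The median was -0.35 over the 13 mRNAs, compared with 0.00 over all genes tested.

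Among the rRNAs, mt-Rnr1 stood at 33.2 vs. 43.2 UMIs per 10000 (log2 ratio -0.37) and mt-Rnr2 at 81.7 vs. 102 (-0.31) in Trf2T188A/ApoE-/- vs. ApoE-/- plaques. Of the complex I subunits, mt-Nd2 stood at 15.1 vs. 21.7 (-0.49), mt-Nd1 at 14.4 vs. 19.7 (-0.43) and mt-Nd4 at 14.3 vs. 19.4 (-0.41). These 3 ratios lay between -0.49 and -0.41. mt-Nd3 stood at 0.897 vs. 1.60 (-0.45), mt-Nd5 at 4.52 vs. 6.06 (-0.35), mt-Cytb at 34.2 vs. 45.1 (-0.39), mt-Co1 at 7.08 vs. 8.88 (-0.29) and mt-Atp8 at 1.48 vs. 2.29 (-0.41). The rRNAs and mRNAs of all complexes therefore had the same direction in plaques.

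For the genes with a mean under 1 in both libraries, UMIs were summed over the cells of each library and scaled to its total. The log2 ratio of these sums was -0.60 (-0.76 to -0.45) for mt-Nd6, -0.35 (-0.49 to -0.21) for mt-Co3, -0.28 (-0.37 to -0.19) for mt-Atp6, -0.28 (-0.53 to -0.03) for mt-Co2 and -0.23 (-0.46 to 0.00) for mt-Nd4l. On this scale mt-Nd3 was lowest at -0.82 (-0.89 to -0.74). The 22 tRNAs together gave -0.46 (-0.60 to -0.32), with 600 vs. 1295 UMIs, and all 37 genes gave -0.42 (-0.43 to -0.42). The 6 tRNA genes that held at least 100 UMIs in a library ranged from -0.54 (mt-Tn) to -0.29 (mt-Tc). The other 16 tRNA genes held between 1 and 62 UMIs.

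**Figure D4:**
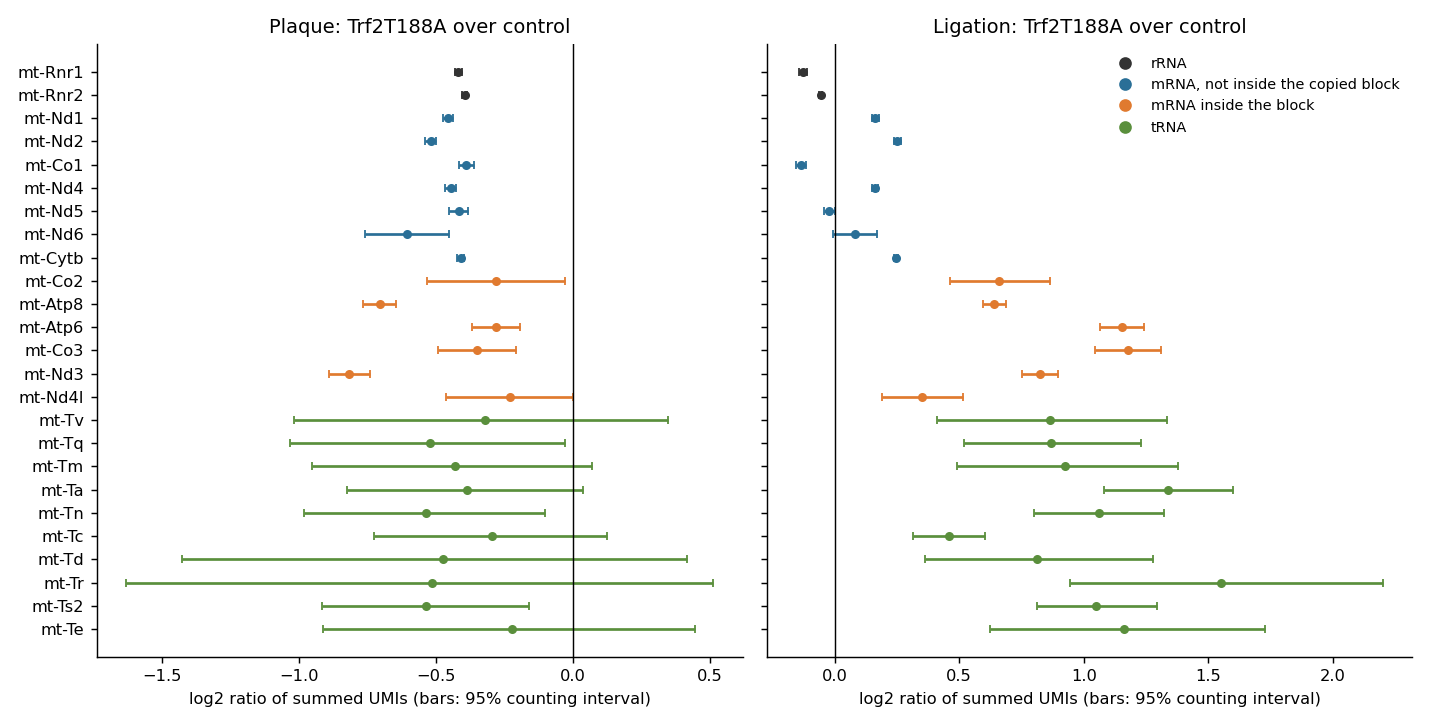
log2 ratio of summed UMIs (horizontal axis) of Trf2T188A over control for each mitochondrial rRNA and mRNA and the 10 tRNAs with at least 100 UMIs in a ligation library (vertical axis), in plaques on the left and ligated arteries on the right, with bars for 95% counting intervals. In plaques the mRNAs lie between -0.82 and -0.23, while in ligated arteries those inside the stretch with a nuclear copy lie at 0.35 to 1.18 and the others at -0.14 to 0.25.

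In contractile cells of plaques, 8 of 13 mRNAs and 2 of 2 rRNAs were called lower, where 0.197% of 10164 genes were called lower. mt-Rnr1 had a log2 ratio of -0.61, mt-Nd2 of -0.56 and mt-Rnr2 of -0.52. Without cells under 0.5%, mt-Rnr1 was at -0.30, mt-Rnr2 at -0.21 and mt-Cytb at -0.18 (-0.48 with them). Over all plaque cells, the median of the 13 mRNAs went from -0.35 to -0.12 and the summed rRNAs from -0.33 to -0.05 without these cells. The difference between the plaque libraries was thus smaller, but of the same direction, without these cells. They were left out by the sum of the same genes, and more often in Trf2T188A/ApoE-/-, so a smaller difference followed from the choice.

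The mRNA ratios differed between plaque classes. Over the 13 mRNAs, Cluster 10-like cells had a median of -0.54, Cluster 5-like of -0.49 and Cluster 3-like of -0.48. The median was close to 0 in Cluster 4-like (-0.07) and Cluster 2-like cells (-0.04). In Cluster 2-like cells, 0 of 13 mRNAs were called lower, where 1.87% of 11516 genes were. Whether the ratios differ between classes beyond the variation between mice was not tested.

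In ligated arteries, both the size and the direction differed by type of gene. Of the mRNAs, 4 of 13 were called higher in Trf2T188A (mt-Atp8, mt-Atp6, mt-Nd3 and mt-Nd2), where 0.837% of 8247 genes were. None of the mRNAs was called lower (0.255% of all genes), and neither rRNA was called. mt-Nd2 stood at 20.2 vs. 16.8 UMIs per 10000 (log2 ratio 0.25), mt-Cytb at 38.3 vs. 32.4 (0.23), mt-Nd1 at 17.9 vs. 15.8 (0.17) and mt-Nd4 at 16.7 vs. 14.9 (0.16) in Trf2T188A vs. control. mt-Nd5 was at -0.01, mt-Rnr2 at -0.04, mt-Rnr1 at -0.11 and mt-Co1 at -0.11. Abundant mRNAs of complexes I and III were thus slightly above control, and the rRNAs and mt-Co1 at or below it.

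The largest ratios in ligated arteries belonged to genes of low level. Summed UMIs gave a log2 ratio of 1.18 (1.04 to 1.31) for mt-Co3, 1.15 (1.06 to 1.24) for mt-Atp6, 0.83 (0.75 to 0.90) for mt-Nd3, 0.66 (0.46 to 0.86) for mt-Co2, 0.64 (0.59 to 0.69) for mt-Atp8 and 0.35 (0.19 to 0.51) for mt-Nd4l. These are the 6 mRNAs that lie inside the stretch with a nuclear copy, and the other 7 ranged from -0.14 (mt-Co1) to 0.25 (mt-Nd2). The other 7 are not free of shared sequence, since mt-Co1 and mt-Nd4 lie partly inside the stretch. In the last 300 bases, 100% of the 90-base windows of mt-Co1 also occurred in annotated transcripts outside the mitochondrial genome. This was 0% for mt-Nd4 and 19.0% for mt-Nd2. The pseudogenes together, at 748 vs. 364 UMIs, gave 0.54 (0.36 to 0.72). In plaques, the same 6 mRNAs ranged from -0.82 to -0.23 and the other 7 from -0.60 to -0.39, and the pseudogenes gave -0.25 (-0.63 to 0.13). The part of reads shared with the copies in these ratios was not tested.

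The tRNAs were also higher in Trf2T188A ligated arteries. Together they held 4164 vs. 1609 UMIs in Trf2T188A vs. control, a log2 ratio of 0.87 (0.79 to 0.96). The 14 on the heavy strand gave 0.98 (0.83 to 1.12) and the 8 on the light strand 0.82 (0.72 to 0.92). The 10 that held at least 100 UMIs in a library ranged from mt-Tc, the tRNA for cysteine, at 0.46 (0.31 to 0.61) to mt-Tr, that for arginine, at 1.55 (0.95 to 2.20). mt-Ta, that for alanine, had 575 vs. 161 UMIs (1.34, 1.08 to 1.60). Of these 10, 8 lie outside the stretch with a nuclear copy, among them mt-Tc, mt-Ta, mt-Tn and mt-Ts2. The other 12 held between 3 and 86 UMIs.

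The make-up of the mitochondrial RNA also varied between cell states. In plaques, rRNA gave 60.9% (95% interval 60.6 to 61.3) of the mitochondrial UMIs in Cluster 4-like, 58.6% (58.3 to 58.9) in Cluster 2-like and 50.5% (50.3 to 50.7) in contractile cells of ApoE-/-. In Trf2T188A/ApoE-/- these were 62.7%, 60.5% and 49.0%. Cluster 11-like cells had the lowest percentage in both libraries (47.5% and 45.2%). Cluster 7-like cells stood above contractile cells in ApoE-/- (54.3%) but below them in Trf2T188A/ApoE-/- (47.9%). In ligated arteries, endothelial-like cells (Pecam1, Cdh5), a class of 62 and 65 cells, had the highest percentage of rRNA (64.3% in control and 62.5% in Trf2T188A), compared with 53.2% and 46.4% in contractile cells.

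Single genes moved unevenly between states. In ApoE-/- plaques, Cluster 2-like cells had a log2 ratio over contractile cells of 0.37 for mt-Rnr1 and -0.21 for mt-Rnr2, but -0.70 for mt-Nd2, -0.59 for mt-Nd1 and -0.54 for mt-Cytb. In Trf2T188A/ApoE-/- these were 0.93, 0.54, -0.19, -0.12 and -0.09. In both libraries mt-Rnr1 was thus higher relative to the mRNAs in Cluster 2-like cells, and mt-Rnr1 was 0.545 and 0.490 times mt-Rnr2 there, vs. 0.364 and 0.353 times in contractile cells. In endothelial-like cells of ligated arteries, mt-Nd2 (-0.87 in control and -1.14 in Trf2T188A) and mt-Cytb (-0.84 and -1.07) were low compared with contractile cells, while mt-Co1 was not (0.00 and -0.10).

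**Figure D5:**
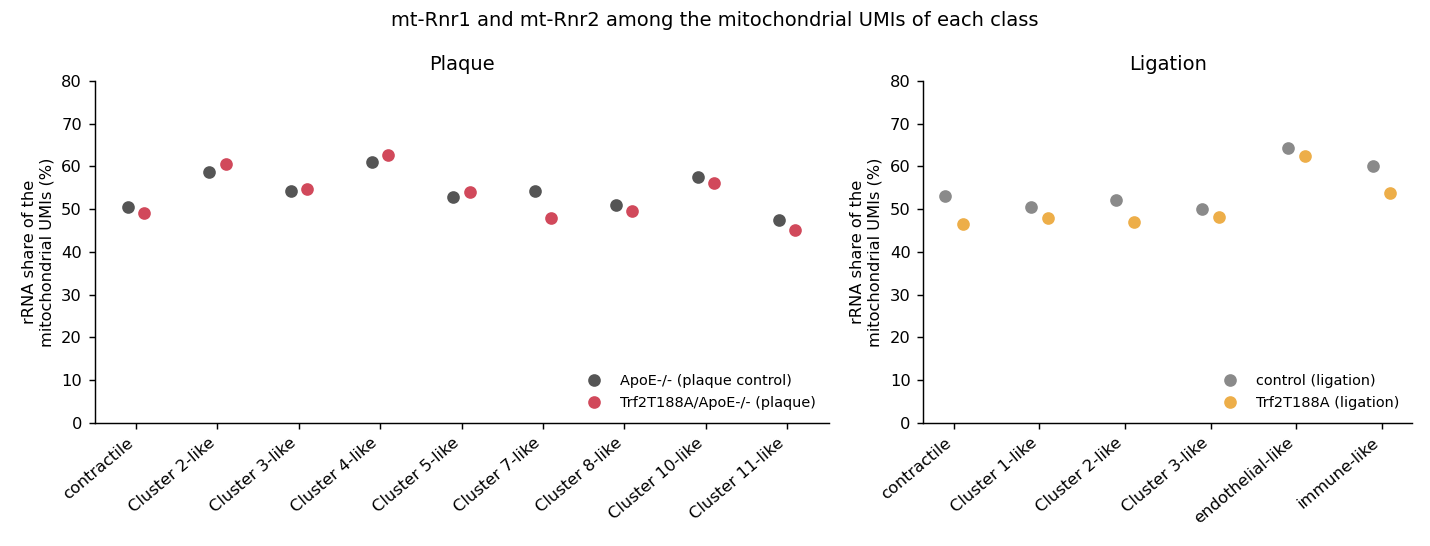
Percentage of the mitochondrial UMIs that came from mt-Rnr1 and mt-Rnr2 (vertical axis) in each class (horizontal axis), with 1 marker per library, for plaques on the left and ligated arteries on the right. Cluster 4-like cells are highest in both plaque libraries (60.9% and 62.7%) and endothelial-like cells in both ligation libraries (64.3% and 62.5%).

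With class markers that differed between plaques and ligated arteries, the share of mitochondrial RNA in Cluster 2-like cells was compared with that in contractile cells. In ligated arteries it was lower by 0.60 percentage points in control (1.54% vs. 2.14%) and by 0.48 in Trf2T188A (1.72% vs. 2.20%). In plaques it was lower by 0.45 in ApoE-/- (2.29% vs. 2.74%) but higher by 0.52 in Trf2T188A/ApoE-/- (2.40% vs. 1.88%). The direction in Trf2T188A/ApoE-/- was the same without cells under 0.5%, at 0.46. These values describe clusters of single libraries.

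Nuclear genes for mitochondrial proteins were examined beside the mitochondrial genes. A list of 37 genes that act in mitochondrial transcription, DNA replication, RNA stability or tRNA excision, or regulate these, contained 32 detected genes in plaques. Of these, 0 were called in either direction, where 0.247% of all genes were called lower and 0.57% higher. None of the 32 had a mean of at least 1 per 10000, so that they could hardly be called with this pseudocount. The log2 ratios ran from -0.04 to 0.20 around a median of 0.00. Tfam, the packaging and transcription factor of mitochondrial DNA, had a log2 ratio of summed UMIs of -0.08 (-0.24 to 0.08), and Polrmt, the mitochondrial RNA polymerase, of -0.08 (-0.44 to 0.27). Lrpprc, which protects mitochondrial mRNAs, was at -0.01 (-0.18 to 0.16). The highest was Ppargc1a, a coactivator of mitochondrial biogenesis, with 240 vs. 206 UMIs (0.87, 0.60 to 1.15). Its ratio of means with the pseudocount was 0.20 over all plaque cells but 0.90 for the Cluster 5-like class. That class held 101 Trf2T188A/ApoE-/- and 82 ApoE-/- cells. Contractile cells gave 0.06, the Cluster 7-like class gave 0.11 and the Cluster 4-like class gave -0.07. The part of the Cluster 5-like class in the ratio over all cells was not tested.

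The nuclear subunits of the respiratory chain had ratios nearer to 0 than the mitochondrial mRNAs over all plaque cells and in contractile cells, but not in Cluster 2-like cells. The median log2 ratio was -0.06 over 36 subunits of complex I and -0.05 over 9 of complex III. It was -0.09 over 11 of complex IV and -0.08 over 14 of ATP synthase. In these lists 0 were called, where 0.247% of all genes were called lower and 0.57% higher. A mean of at least 1 per 10000 was reached by 25, 5, 11 and 13 of them, and the pseudocount pulls lower genes toward 0. In contractile cells the medians were 0.01, 0.04, 0.03 and 0.00, while the 13 mitochondrial mRNAs were at -0.46. In cells under 0.5%, the contractile cells of Trf2T188A/ApoE-/- plaques had 74.99 UMIs per 10000 of the complex I subunits together, vs. 68.1 in cells of 1 to 3%. In Cluster 2-like cells the nuclear medians were -0.11, -0.12, -0.19 and -0.15 in the same order of complexes, farther from 0 than that of the mitochondrial mRNAs at -0.04.

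In ligated arteries, 20 of the 37 nuclear expression genes were detected and 0 were called, where 0.837% of all genes were called higher and 0.255% lower. Of these 20, 1 had a mean of at least 1 per 10000. The highest was Ssbp1, which binds single-stranded mitochondrial DNA, with a log2 ratio of summed UMIs of 0.44 (0.36 to 0.52), and Slirp, the partner of Lrpprc, was at 0.33 (0.26 to 0.41). The median was 0.10 over complex I, where 2 of 36 subunits were called higher, 0.15 over complex IV with 4 of 11, 0.09 over ATP synthase with 3 of 13 and 0.06 over complex III with 0 of 9. The median was 0.00 over all genes tested and the median of the 13 mitochondrial mRNAs was 0.17.

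Finally, co-variation of the mitochondrial genes was described over contractile cells. For 8 genes (28 pairs), the median Spearman's rho was 0.58 in ApoE-/- (690 cells), 0.81 in Trf2T188A/ApoE-/- (316 cells), 0.51 in control (1621 cells) and 0.51 in Trf2T188A ligated arteries (2326 cells). The highest pair was mt-Rnr1 with mt-Rnr2 in 3 libraries (0.89, 0.94 and 0.69) and mt-Nd1 with mt-Nd2 in Trf2T188A ligated arteries (0.71). Cells of 1 library share its preparation, and all values are scaled to the same total, so these are descriptions only. The share itself had a rho with the UMIs of a cell of -0.04 and -0.05 in contractile cells of ApoE-/- and Trf2T188A/ApoE-/- plaques, and of -0.27 and -0.31 in control and Trf2T188A ligated arteries.

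Markers of other cells were also examined. In plaques, 8 endothelial genes together stood at 0.633 and 0.846 UMIs per 10000 in ApoE-/- and Trf2T188A/ApoE-/-, 8 immune genes at 0.339 and 0.678 and 4 fibroblast genes at 1.001 and 0.934. The immune genes stood at 1.65 in control and 4.38 in Trf2T188A ligated arteries, and the endothelial genes at 1.80 and 1.71. No gene of the endothelial and immune lists was at 0 in any library. Of 3 T cell genes, 2 were at 0 in ApoE-/- plaques and in control ligated arteries. In ligated arteries, the class named from the immune genes held 19 control and 57 Trf2T188A cells. The median of the 13 mRNAs there was 0.17 over all cells and 0.22 in contractile cells alone. The part of other cell types in the mitochondrial values of ligated arteries was not tested.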

How the data were processed

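scRNA-seq was performed on the Chromium system (10x Genomics), and reads were aligned to GRCm38 with Cell Ranger (7.0.0 for plaques and 6.1.2 for ligated arteries). The authors excluded plaque cells with fewer than 1500 (ApoE-/-) or 1000 (Trf2T188A/ApoE-/-) genes or over 8% mitochondrial reads, and ligation cells with fewer than 1200 genes, over 6% mitochondrial reads or over 40% of reads from their most highly expressed genes. The deposited signal values were the UMIs of a gene divided by the total of its cell and multiplied by 10000, without a logarithm. All values (100%) lay within 0.01 of whole multiples of 1 UMI, so UMIs were recovered (37869934, 24064570, 47713453 and 67426588 in ApoE-/-, Trf2T188A/ApoE-/-, control and Trf2T188A). No count model was used, since each genotype had 1 library.

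Cells were clustered with Seurat 5.3.0 in R 4.3.3 (2000 variable genes, 18 or 17 components, resolution 0.9 for plaques and 0.2 for ligation), with mitochondrial genes left out. Classes were named from the study's markers, with limits set after the data had been seen, and no cell was removed. Scrublet in scanpy 1.11.5 marked 0% to 0.215% of cells as doublets, too few for it to have worked, so doublets remain. Genes were called at a log2 ratio of 0.25 with a pseudocount of 1. The text names all mitochondrial mRNAs and rRNAs, and single tRNAs with at least 100 UMIs in a library. Atp5o, listed under 2 symbols, was left out. Intervals were exact (Clopper-Pearson, or binomial for a ratio of sums). Scripts ran in Python 3.11.15 with pandas 2.3.3, scipy 1.17.1, numpy 2.4.6 and matplotlib 3.10.9, and were tested on simulated data. The members and lists were chosen with earlier results of these data known. Transcript sequences and positions are from GENCODE M21 (GRCm38) and were aligned with biopython 1.88.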

Additional observations from a re-analysis of the deposited data

Results flagged for a closer look

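The genotype difference in mean mitochondrial share, Trf2T188A minus control, was -0.63 percentage points in plaques and 0.11 in ligated arteries. It stood out because the directions were opposite. The median log2 ratio of the 13 mRNAs likewise was -0.35 in plaques and 0.17 in ligated arteries. The mean share of Cluster 2-like minus that of contractile cells was -0.45 percentage points in ApoE-/- and 0.52 in Trf2T188A/ApoE-/- plaques. With 1 library on each side, none of these 3 differences was tested. The experiments also differed in diet, ApoE, limits on the share and Cell Ranger version, which cannot be told apart from the disease.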

How the results depend on the processing

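Of 48 alternatives over 7 results, 18 stayed within the counting error of the reported value, 30 moved beyond it and 0 reversed. The pooled difference in share between Cluster 2-like and contractile plaque cells joins opposite directions. It was -0.45 points in ApoE-/- and 0.52 in Trf2T188A/ApoE-/-, and taking each library alone was not among the 48 alternatives. Allowing mitochondrial genes among the variable genes, counted among the 18 for plaques and for ligated arteries, could not change a value. The reason is that 0 of the top 2000 variable genes were mitochondrial. The difference in share in plaques (-0.63 points) was -0.61 with UMIs summed over cells, -0.65 without cells under 2000 genes, -0.64 without the 5% with the highest doublet score, -0.60 with cells up to 6%, -0.86 in contractile cells, -0.19 without cells under 0.5% and -0.66 without Cluster 5-like cells. In ligated arteries (0.11) it was 0.091 summed, 0.14 without cells under 2000 genes and 0.060 in contractile cells. The mRNA median in plaques (-0.35) was -0.41 with a pseudocount of 0.1, -0.46 in contractile cells and -0.12 without cells under 0.5%, and in ligated arteries (0.17) it was 0.15 summed, 0.24 with that pseudocount and 0.22 in contractile cells. The summed rRNA ratio in plaques (-0.33) was -0.40 summed, -0.36 without cells under 2000 genes, -0.35 with cells up to 6%, -0.55 in contractile cells, -0.054 without cells under 0.5% and -0.37 without Cluster 5-like cells. Cluster 2-like minus contractile cells in plaques (-0.13 over both libraries) was -0.47 summed, -0.19 without cells under 2000 genes, -0.17 with cells up to 6%, -0.10 at lower resolution and -0.071 without cells under 0.5%. In ligated arteries (-0.55) it was -0.51 summed, -0.58 without cells under 2000 genes and -0.54 at higher resolution, and lower resolution gave no value because the 2 classes did not separate. The cause was not tested. The 2 settings that left out cells under 0.5% or Cluster 5-like cells were chosen after seeing the data. Leaving out cells under 0.5% selects on the share itself, so the smaller genotype differences in plaques there followed from the choice. No paired analysis was possible because each genotype had 1 library per experiment, and for the same reason no replicate could be left out. Low-level genes such as mt-Co2 and single tRNAs are limited by their few UMIs.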

Other observations

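The nuclear genes that went most closely with the mitochondrial share over contractile cells are given as a description, from cells of 1 library that share its preparation. In ApoE-/- plaques (690 cells, 7141 genes ranked) the highest Spearman's rho were those of Smtn, a smooth muscle gene (0.26, and 0.02 in Trf2T188A/ApoE-/-), Gm23935 (0.25 and 0.26), Myom1 (0.24 and 0.31) and Dmd (0.23 and 0.32). Among the lowest were genes of the cytosolic translation apparatus, Eef1a1 (-0.35 and -0.21), Rps21 (-0.34 and -0.24) and Rpl32 (-0.33 and -0.27). In control ligated arteries (1621 cells, 4198 genes ranked) the highest were Mir6236 (0.33, and 0.33 in Trf2T188A) and Cald1, which binds actin (0.33 and 0.32). CT010467.1, labelled here as rRNA-like, followed (0.32 and 0.28), with Lars2, the mitochondrial leucyl-tRNA synthetase (0.31 and 0.35). Whether UMIs counted under these symbols came from rRNA was not tested. The lowest were Gadd45b, a stress gene (-0.44 and -0.33), Ftl1, the ferritin light chain (-0.41 and -0.38), and Nfkbia, an inhibitor of NF-kB (-0.39 and -0.36).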
